A study of Mus musculus with 5 samples.

Results

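The Myb and Myc families of transcription factors were followed in single mouse embryos after conditional deletion of Oct4 (Pou5f1). The group comprised 10 genes, found by symbol among the 49671 genes of the count table: the MYB paralogues Myb, Mybl1 and Mybl2, the MYC paralogues Myc, Mycn and Mycl, and 4 genes whose products pair with or oppose MYC, namely Max, Mnt, Mxd3 and Mlx. They were chosen with their difference between genotypes already known, in particular the low level of Myb in mutant embryos, so that difference is given for the 10 genes as a description. No p-value is printed for them. Which of them a fit over all genes called is stated only beside the share or the number of all genes called. Of the 10 genes, 9 had enough counts to enter the test across genes, and Mybl1 did not.

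MYB proteins bind DNA through tandem repeats of a helical domain. Myb itself is best known for keeping blood progenitors and other immature cells dividing, Mybl1 for male meiosis, and Mybl2 for the expression of mitotic genes in nearly all dividing cells, where it works with the MuvB complex. MYC, MYCN and MYCL bind the E-box as dimers with MAX and promote ribosome production, metabolism and growth. MNT and the MXD proteins also pair with MAX and repress, and MLX is the partner of a related branch that responds to nutrients.

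RNA was sequenced from 5 embryos of mixed strain background at about E6.75, when gastrulation is beginning. The 2 control embryos (SO+) carried no Cre and had 1 floxed and 1 wild-type Oct4 allele (Sox2Cre-/-; Oct4 fl/+), and the 3 mutant embryos (SO−) carried Cre under the Sox2 promoter with 1 floxed and 1 null allele (Sox2Cre+/-; Oct4 fl/-). All embryos therefore shared a floxed allele, and only the mutants carried Cre. The extra-embryonic ectoderm was dissected away and the epiblast was sequenced together with the visceral endoderm, in which Sox2Cre is largely inactive, so each SO− library also holds tissue that Cre does not target. Deletion by Sox2Cre is also mosaic at first.

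Depth differed with genotype, and levels are therefore given as CPM, the count of a gene scaled to the total of its library. Total counts were 27538119 and 27047148 in the SO+ embryos and 4134617, 1117566 and 4191498 in the SO− embryos, and mean depth was 8.67 times higher in SO+. The second index of the library was the same in both SO+ libraries and another in all 3 SO− libraries, whereas the first index did not follow genotype. Genotype, second index and depth therefore cannot be told apart. A count of 3 in a library, the upper limit that a count of 0 allows, corresponds to 0.109 and 0.111 CPM in SO+ and to 0.726, 2.68 and 0.716 CPM in SO−. These limits, and the Poisson intervals below, cover counting error only.

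Pou5f1, the targeted gene, was measured first. It had 920 and 435 CPM in SO+ against 27.8, 12.5 and 43.7 CPM in SO−. The genotypes did not overlap, and Pou5f1 fell by 4.43 on the log2 scale (SE 0.33, edgeR adjusted p = 3.9e-05). The change was no longer past an adjusted p of 0.05 with limma-voom (adjusted p = 0.0639) or with a robust estimate of the spread in edgeR (adjusted p = 0.0988).

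Markers of tissue content differed between genotypes in part, and tissue content itself was not measured. The summed level of the 6 epiblast markers was 4980 and 4371 CPM in SO+ against 2751, 2459 and 3487 CPM in SO−. That difference lay in Dnmt3b, the de novo DNA methyltransferase of the epiblast, with a mean of 3623 CPM in SO+ and 1813.5 CPM in SO−. Dnmt3b fell by 0.99 on the log2 scale (SE 0.15, edgeR adjusted p = 0.0039), whereas 3 of the 6 epiblast markers had a fold change above 0. The Dnmt3b call did not hold without SO− embryo 1 (adjusted p = 0.122), without SO− embryo 2 (0.102) or with the robust spread (0.0682). The 7 visceral endoderm markers summed to 2358 and 2536 CPM in SO+ and to 3613, 3504 and 2212 CPM in SO−, with overlapping ranges. All 7 had a fold change above 0 (median log2 fold change 0.39), 3 had an unadjusted p under 0.05 and none passed the adjusted threshold. Markers of extra-embryonic ectoderm stayed between 11.2 and 17.0 CPM in sum in all 5 embryos. Fewer cells of a type and less RNA per cell cannot be told apart in such samples, and the part of tissue content in the differences below was not tested.

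The MYB paralogues are similar in the coding sequence of their DNA-binding repeats, so their reads could in principle be confused. A stretch of 60 coding bases of the second repeat is shown because it holds the longest identical run between Myb and Mybl1. It is read from the GRCm38 genome, with capitals in Mybl1 and Mybl2 marking bases identical to Myb. The Myb stretch lies on the minus strand of chr10:21152635-21152929, starting in exon 4 of 16 and split by an intron, and the Mybl1 and Mybl2 stretches are likewise split between 2 coding exons at chr1:9687760-9690118 (minus strand) and chr2:163062512-163064301 (plus strand).
Myb: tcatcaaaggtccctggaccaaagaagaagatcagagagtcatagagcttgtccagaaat
Mybl1: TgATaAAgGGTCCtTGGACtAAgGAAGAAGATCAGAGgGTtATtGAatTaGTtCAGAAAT
Mybl2: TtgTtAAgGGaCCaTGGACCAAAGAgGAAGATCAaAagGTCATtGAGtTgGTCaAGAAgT
Mybl1 matched Myb at 47 of the 60 bases (78.3%) and Mybl2 at 45 (75%), with differences spread along the stretch. Over the whole transcripts the longest identical run was 14 bases between Myb and Mybl1, 12 between Myb and Mybl2 and 13 between Mybl1 and Mybl2. No pair shared a run of 31 bases, which is short beside reads of 150 bases.

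The same was true of the MYC paralogues. The coding sequence of Mycn and Mycl is shown around MYC box II, a conserved stretch of the activation domain, with capitals in Mycl marking bases identical to Mycn. The positions are chr12:12940011-12940070 for Mycn (minus strand, exon 2 of 3) and chr4:122996780-122996839 for Mycl (plus strand, exon 1 of 2).
Mycn: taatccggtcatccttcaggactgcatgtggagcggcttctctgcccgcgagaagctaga
Mycl: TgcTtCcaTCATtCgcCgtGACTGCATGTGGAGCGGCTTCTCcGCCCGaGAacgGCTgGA
Here Mycl matched Mycn at 44 of 60 bases (73.3%). The longest identical run over the transcripts was 23 bases between Mycn and Mycl, 21 between Myc and Mycl and 12 between Mycn and Myc.

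Myb had the lowest SO− level relative to SO+ of the 10 genes. Myb (ENSMUSG00000019982) lies on the minus strand of chr10:21124935-21160984. It had 957 and 546 counts in the SO+ embryos and 10, 1 and 4 counts in SO− embryos 1, 2 and 3. As levels these were 34.8 and 20.2 CPM in SO+ and 2.42, 0.89 and 0.95 CPM in SO−. The SO− values all lay well under the lower SO+ value, although the SO+ embryos themselves differed from each other beyond counting error, with 95% Poisson intervals of 32.6 to 37.0 CPM and 18.5 to 21.9 CPM. The mean was 27.5 ± 10.3 CPM (SD, n = 2) in SO+ and 1.42 ± 0.86 CPM (SD, n = 3) in SO−, which left 5.18% of the SO+ level.

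The log2 fold change of Myb was −4.11 (SE 0.43). The deficit rested on 15 counts in the 3 mutant embryos against 1503 in the controls. Their ratio after scaling for depth was 17.3-fold, with a 95% interval of 10.5 to 31.1 from counting error. Among the 112 genes called lower in SO−, Myb ranked 6 by the size of its fold change, and the median of those genes was −1.40. Without SO+ embryo 1, which had the higher Myb level, the fold change was −3.68, and without SO− embryo 1, which held 10 of the 15 mutant counts, it was −4.85. With limma-voom it was −4.05.

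Across all genes tested, edgeR called 2.35% different at an adjusted p under 0.05, with 0.928% lower and 1.42% higher in SO−. Among the 9 members tested, 2 were called, Myb and Mycn, both lower, and with limma-voom only Mycn. The Mycn call was lost when SO− embryo 1 was left out, with a log2 fold change of −0.83, and when SO− embryo 2 was left out, with −0.80. In those fits 46 and 35 genes were called in all, against 283 with every embryo. Genotypes did not overlap in CPM for 29.5% of all genes tested (15.6% lower and 13.9% higher in SO−), and among the 9 members for 4, of which Myb, Mybl2 and Mycn were lower and Myc was higher. The median log2 fold change was −0.25 over the tested members and −0.0019 over all genes tested. It was below 0 for 6 of the 9 members and for 50.3% of all genes. As the members were chosen on this contrast, nothing is read from these counts.

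**Figure D1:**
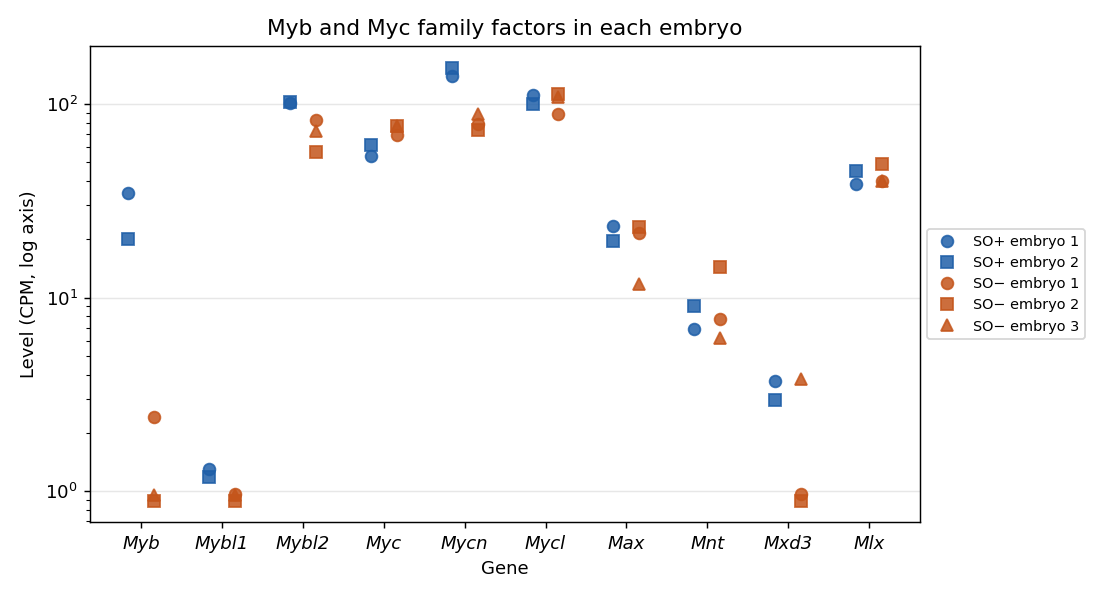
Level of each of the 10 genes in each embryo in CPM, on a log axis, with SO+ embryos in blue and SO− embryos in orange and 1 point per embryo. Myb is at 34.8 and 20.2 CPM in SO+ and at or under 2.42 CPM in SO−, whereas Mycl, Max, Mnt, Mxd3 and Mlx have overlapping genotypes.

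The other MYB paralogues did not show a deficit of that size. Mybl2 (ENSMUSG00000017861; chr2:163054687-163084688, plus strand), the paralogue of dividing cells, was at 101 and 102 CPM in SO+ and at 82.7, 56.4 and 72.3 CPM in SO−. All SO− values were under both SO+ values, and the mean was 102 ± 0.88 CPM (SD, n = 2) against 70.5 ± 13.3 CPM (SD, n = 3). The log2 fold change of Mybl2 was −0.49 (SE 0.16). Mybl1 (ENSMUSG00000025912; chr1:9667415-9700209, minus strand), the meiotic paralogue, was scarce in every embryo and near the limit of detection in SO−. It had 36 and 32 counts in SO+ and 4, 1 and 4 counts in SO−, or 1.31 and 1.18 CPM against 0.97, 0.89 and 0.95 CPM. Its pooled ratio of SO+ over SO− was 1.31-fold with a 95% counting interval of 0.650 to 2.98, so a difference in Mybl1 was not detectable at this depth.

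Mybl2 was the main MYB transcript in both genotypes. Dividing CPM by the length of the longest protein-coding transcript in kilobases allows levels to be compared between genes. Of the family sum on this scale, Mybl2 made up 74.1% and 83.1% in the SO+ embryos and 96.4%, 97.3% and 97.8% in SO−. Myb made up 25.2% and 16.2% in SO+ and 2.79%, 1.53% and 1.28% in SO−. Mybl1 stayed at 0.703% to 1.13% in all 5 embryos. The family sum was 37.3 and 33.7 CPM per kb in SO+ and 23.5, 15.9 and 20.2 CPM per kb in SO−, so the lower total held both the near loss of Myb and the lower Mybl2 values. These shares and sums depend on the length used. With the union of all annotated exons, 8933 rather than 3693 bases for Myb, the share of Myb was smaller. Mean levels per kb of that length were 3.08 CPM for Myb and 21.9 CPM for Mybl2 in SO+. In SO− they were 0.159 and 15.2 CPM.

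The balance of the MYC paralogues also differed between genotypes. Mycn (ENSMUSG00000037169; chr12:12936093-12941914, minus strand), the MYC gene best known from embryonic tissues, was at 139 and 154 CPM in SO+ and at 78.6, 73.4 and 89.2 CPM in SO−. The highest SO− value was well under the lower SO+ value, and the mean was 147 ± 10.6 CPM (SD, n = 2) against 80.4 ± 8.08 CPM (SD, n = 3). Its log2 fold change was −0.85 (SE 0.13). By size it ranked 92 among the 112 genes called lower, with 81.25% of those calls larger.

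Myc (ENSMUSG00000022346; chr15:61985391-61990374, plus strand), the founding member of the family, had values on the other side. It was at 53.6 and 61.4 CPM in SO+ and at 69.4, 77.0 and 76.6 CPM in SO−, without overlap. The mean was 57.5 ± 5.52 CPM (SD, n = 2) against 74.3 ± 4.25 CPM (SD, n = 3), and the log2 fold change was 0.37 (SE 0.15). Mycl (ENSMUSG00000028654; chr4:122995652-123002485, plus strand), the third paralogue, overlapped between genotypes at 111 and 100.4 CPM in SO+ and 89.2, 113 and 109 CPM in SO−. Its log2 fold change was −0.04 (SE 0.14), and its sign turned in 2 of the 13 fits.

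**Figure D2:**
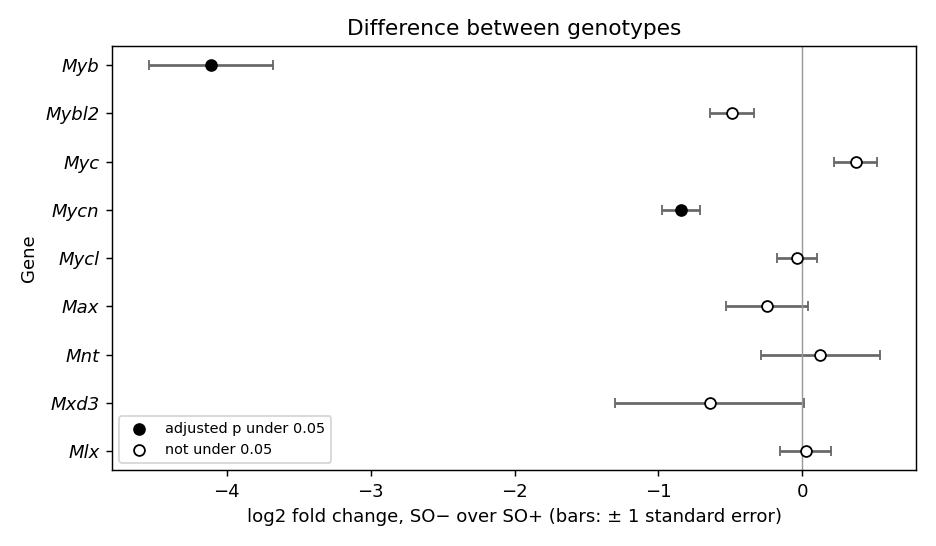
Log2 fold change of SO− over SO+ for the 9 genes tested by edgeR, with bars of 1 standard error on each side. Filled points mark Myb (−4.11) and Mycn (−0.85), which passed an adjusted p of 0.05 as 2.35% of all genes tested did, and open points mark the 7 that did not, with Myc at 0.37 and Mybl2 at −0.49.

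Within each embryo the ratio of Mycn to Myc does not depend on library depth. Per kb of transcript it was 2.27 and 2.19 in SO+ and 0.990, 0.834 and 1.02 in SO−, so Mycn exceeded Myc about equally in both controls and was level with or under it in the 3 mutants. The share of Mycn in the sum of the 3 paralogues was 48.7% and 51.2% in SO+ and 34.8%, 29.6% and 34.4% in SO−. Myc took 21.5% and 23.3% in SO+ and 35.1%, 35.6% and 33.7% in SO−. Mycl took 29.8% and 25.5% in SO+ and 30.1%, 34.8% and 31.9% in SO−. The sum itself was 107 and 113 CPM per kb in SO+ and 84.6, 92.6 and 97.1 CPM per kb in SO−. Thus the 3 paralogues held unequal shares in SO+ and nearly equal shares in SO−.

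**Figure D3:**
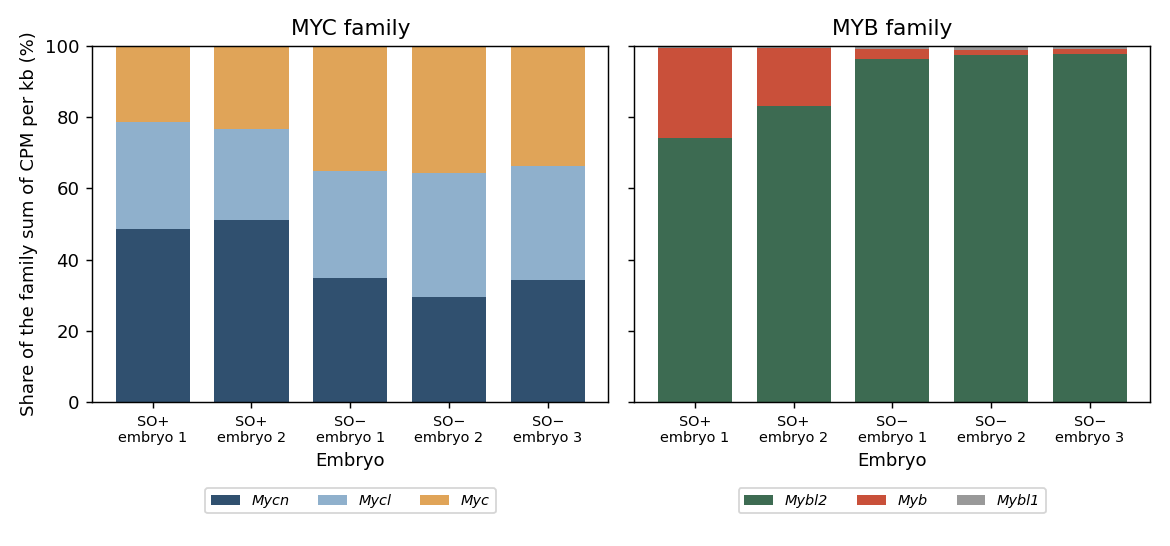
Stacked bars of the share of each paralogue in its family's sum of CPM per kb of the longest protein-coding transcript, in percent, for each embryo. On the left Mycn makes up 48.7% and 51.2% in SO+ and 29.6% to 34.8% in SO−, and on the right Myb makes up 25.2% and 16.2% in SO+ and at most 2.79% in SO−.

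The partners and repressors of MYC showed no such pattern. Max (ENSMUSG00000059436; chr12:76937269-76962201, minus strand), the obligate partner, was at 23.6 and 19.6 CPM in SO+ and at 21.5, 23.3 and 11.7 CPM in SO−. SO− embryo 3 alone lay below the SO+ range, and without it the log2 fold change of −0.25 (SE 0.29) became 0.04. Mlx (ENSMUSG00000017801; chr11:101087277-101092207, plus strand), the partner in the nutrient-sensing branch, was at 38.6 and 44.9 CPM in SO+ and at 40.1, 49.2 and 39.8 CPM in SO−, with a log2 fold change of 0.02 (SE 0.18). Its exons share 385 bases (19.3%) with Psmc3ip on the other strand, a gene with 906 and 858 counts in SO+ and 116, 23 and 129 in SO−, and the strand setting of the counting is not given in the sources used here.

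The repressors were scarce. Mnt (ENSMUSG00000000282; chr11:74830920-74845725, plus strand), a broadly expressed MAX-binding repressor, was at 6.86 and 9.10 CPM in SO+ and at 7.74, 14.3 and 6.20 CPM in SO−. SO− embryo 2, the shallowest library, was the highest, and without it the log2 fold change of 0.12 (SE 0.41) became −0.19. Mxd3 (ENSMUSG00000021485; chr13:55325168-55329823, minus strand), the MXD repressor of dividing cells, had 102 and 80 counts in SO+ and 4, 1 and 16 counts in SO−. This gave 3.70 and 2.96 CPM against 0.97, 0.89 and 3.82 CPM, with SO− embryo 3 above both controls and the other two mutants below them. The log2 fold change was −0.64 (SE 0.66), and it was −1.81 without SO− embryo 3. The pooled ratio of SO+ over SO− was 1.499-fold with a 95% counting interval of 0.952 to 2.48. Mxd3 shares 105 exon bases (4.43%) with Prelid1 on the other strand, which had 528 to 14156 counts.

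In order of level per kb, the SO+ embryos ranked Mycn first at 54.9 ± 3.97 CPM per kb (SD, n = 2). It was followed by Mycl at 30.2 ± 2.21, Mybl2 at 27.8 ± 0.24, Myc at 24.6 ± 2.36, Mlx at 21.3 ± 2.26 and Max at 11.1 ± 1.45 CPM per kb. Myb stood seventh at 7.44 ± 2.79 CPM per kb, above Mxd3 at 2.51 ± 0.40, Mnt at 1.74 ± 0.34 and Mybl1 at 0.238 and 0.263 CPM per kb. The ranges of neighbours in this order did not overlap, although each range rests on only 2 embryos.

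In SO− the head of the order was shared. Myc stood at 31.8 ± 1.82 CPM per kb (SD, n = 3), Mycn at 30.1 ± 3.02 and Mycl at 29.6 ± 3.58, with overlap from each to the next. Mlx at 21.9 ± 2.71 and Mybl2 at 19.3 ± 3.63 CPM per kb also overlapped, as did Mnt at 2.05 ± 0.94 and Mxd3 at 1.43 ± 1.26, with Max between these pairs at 9.69 ± 3.21. Myb was ninth at 0.385 ± 0.234 CPM per kb, next to Mybl1 at 0.189 ± 0.0078. The order depends in part on the length used: with the union of all annotated exons, which is 8933 rather than 3693 bases for Myb, Myb ranked 7 in SO+ as before and 10 in SO−, behind Mybl1. On that scale Mycl also stood before Mycn in SO−, and Mnt before Mxd3 in SO+.

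**Figure D4:**
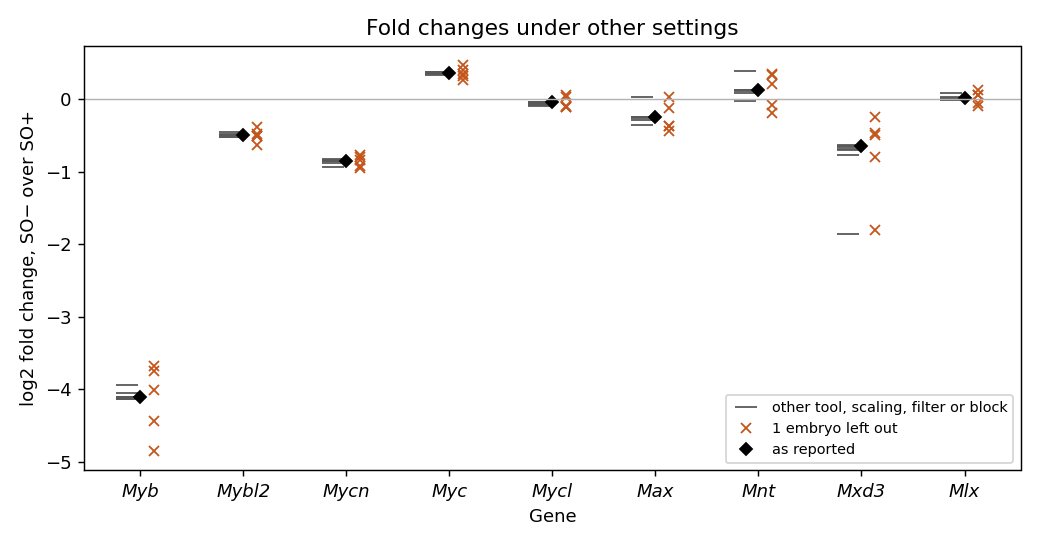
Log2 fold change of SO− over SO+ of each tested member as reported (black diamonds), under another tool, scaling, filter or a replicate block (grey bars), and with 1 embryo left out (orange crosses). Myb stays between −4.85 and −3.68 and Mycn between −0.94 and −0.77, whereas Mycl, Max, Mnt and Mlx fall on both sides of 0 and Mxd3 ranges from −1.86 to −0.24.

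The genes flanking Myb did not share its difference. Ahi1 lies 44.5 kb away on the side of lower coordinates and was at 7.12 and 12.6 CPM in SO+ and at 5.80, 1.79 and 8.83 CPM in SO−, with a log2 fold change of −0.68 (SE 0.47, edgeR adjusted p = 0.602). Mtfr2, next on that side at 764 kb, had a log2 fold change of −0.13 (edgeR adjusted p = 0.921). On the side of higher coordinates, Hbs1l at 135 kb, a gene whose interval with Myb is known for blood cell enhancers, was at 102 and 96.9 CPM in SO+ and at 99.9, 106 and 87.3 CPM in SO− (log2 fold change −0.04, SE 0.13, edgeR adjusted p = 0.953). Sgk1 at 721 kb had a log2 fold change of 0.28 (edgeR adjusted p = 0.243). The antisense gene Gm26577, which shares 559 exon bases (6.26%) with Myb, had 0 counts in all 5 embryos.

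The promoters of the 3 tested members whose SO− values all lay under SO+ are shown because they carry an element in common. The sequences are from the RefSeq table for GRCm38.p6, which had an entry for 8 of the 10 genes, and hold up to 250 bases before the start of transcription, on the strand of the gene. They are chr10:21160985-21161234 for Myb (minus strand), chr2:163054385-163054634 for Mybl2 (plus strand) and chr12:12941915-12942086 for Mycn (minus strand). Capitals mark matches to the motifs named below.
Myb: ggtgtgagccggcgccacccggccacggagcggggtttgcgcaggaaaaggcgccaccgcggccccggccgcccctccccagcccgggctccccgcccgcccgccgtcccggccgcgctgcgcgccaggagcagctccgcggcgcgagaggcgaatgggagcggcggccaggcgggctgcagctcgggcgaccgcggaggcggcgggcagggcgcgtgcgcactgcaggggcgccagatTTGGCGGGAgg
Mybl2: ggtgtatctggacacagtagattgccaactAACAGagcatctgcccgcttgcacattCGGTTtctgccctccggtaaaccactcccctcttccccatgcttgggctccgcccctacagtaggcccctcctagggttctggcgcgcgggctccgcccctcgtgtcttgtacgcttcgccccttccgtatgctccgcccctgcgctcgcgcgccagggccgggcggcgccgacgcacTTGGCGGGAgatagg
Mycn: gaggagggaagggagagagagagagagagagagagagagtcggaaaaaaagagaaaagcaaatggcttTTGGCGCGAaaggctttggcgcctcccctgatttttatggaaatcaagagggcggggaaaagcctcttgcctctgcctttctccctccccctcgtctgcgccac
The motif TTGGCGNGA, a form of the element bound by E2F factors, was picked after these sequences had been read. Searched on both strands of the 250 bases before each start, it was present in these 3 promoters, beginning 11 bases before the start in Myb, 15 in Mybl2 and 182 in Mycn, in none of the other 5 and in 0.444% of 32851 promoters. As the motif was picked from these 3 sequences, its presence in them was settled beforehand, and nothing is read from these shares. The octamer ATGCAAAT, the site that OCT4 and its relatives bind, was in none of the 8 and in 1.6% of all promoters. The E-box CACGTG of MYC and MAX was in Mnt and Mlx and in 6.02% of all, and the MYB motif AACNG was in each of the 8 except Myb and in 74.2% of all. TTTGAA, the cell cycle homology region read by MuvB, was in Mycn alone and in 16% of all. The AACNG and TTTGAA matches of Mycn lie in a part that the printed stretch leaves out. Another annotation places that part inside the transcript. A match is only a match of letters, and binding was not measured.

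The wider MYB and MYC pathways were read from 9 lists of partners and targets that held 143 genes, of which 134 were tested. Only 2 passed an adjusted p of 0.05 in edgeR, or 1.49% against 2.35% of all genes tested. Prps2, which makes the activated ribose for nucleotide synthesis and is translated under MYC control, was at 115 and 121 CPM in SO+ and at 62.2, 55.5 and 74.7 CPM in SO−, and fell by 0.85 on the log2 scale (SE 0.15, edgeR adjusted p = 0.00808). Tdrd5, a Tudor protein of male germ cells listed as an MYBL1 target, was at 6.35 and 5.69 CPM in SO+ and at 28.3, 17.9 and 15.7 CPM in SO−, and rose by 1.80 (SE 0.33, edgeR adjusted p = 0.0116). Neither gene overlapped between genotypes, and neither call held without SO− embryo 1 (Prps2 adjusted p = 0.133, Tdrd5 0.185) or without SO− embryo 2 (0.119 for each). The unadjusted p was under 0.05 for 30 of the 134 genes (22.4%) and for 13.7% of all genes tested, and the median log2 fold change was −0.09.

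**Figure D5:**
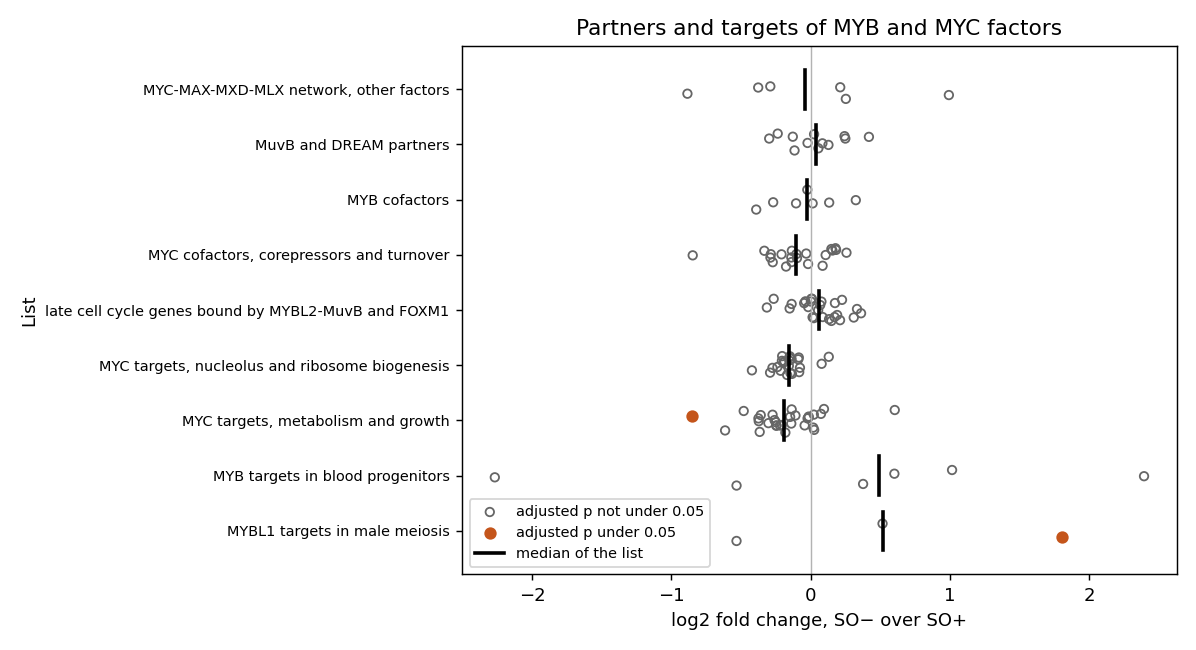
Log2 fold change of SO− over SO+ for the 134 tested genes of the 9 lists, 1 point per gene, with a black line at the median of each list. The 2 filled points are Prps2 at −0.85 and Tdrd5 at 1.80, and the medians of the lists with at least 7 tested genes lie between −0.19 and 0.06, with −0.04 over the 6 other network factors, 0.49 over the 6 blood genes and 0.52 over the 3 meiotic genes.

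The lists of MYC targets lay slightly below 0. Of 23 genes of the nucleolus and of ribosome production, 21 had a fold change below 0, against 50.3% of all genes tested, and 15 did not overlap between genotypes, all 15 lower in SO−, against 15.6% of all genes, yet none was called and the median log2 fold change was only −0.15. Their most abundant members were Npm1, the nucleolar chaperone nucleophosmin, at 4340 and 4602 CPM in SO+ and 4326, 3730 and 3976 CPM in SO− (log2 fold change −0.15, edgeR adjusted p = 0.478), and Ncl, nucleolin, with a log2 fold change of −0.08 (edgeR adjusted p = 0.742). Of 30 genes of metabolism and growth, 24 had a fold change below 0, 12 lay wholly lower and 1 wholly higher in SO−, against 15.6% and 13.9% of all genes, and the median was −0.19. Among them Ldha, lactate dehydrogenase, was at 7442 and 6960 CPM in SO+ and 5749, 5836 and 6514 CPM in SO− (log2 fold change −0.25, edgeR adjusted p = 0.152), and Pkm, pyruvate kinase, had a log2 fold change of −0.21 (edgeR adjusted p = 0.301). The unadjusted edgeR p was under 0.05 for 13 of these 30 genes and for 4 of the 23, against 13.7% of all genes tested.

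The targets shared by MYBL2, MuvB and FOXM1 had a median near 0. Of 26 late cell cycle genes, 19 had a fold change above 0, whereas 50.3% of all genes tested lay below 0. None of the 26 was called and the median log2 fold change was 0.06. Without overlap, 5 lay wholly higher and 3 wholly lower in SO−, against 13.9% and 15.6% of all genes tested. Ccnb1, cyclin B of the mitotic kinase, was at 842 and 852 CPM in SO+ and at 771, 754 and 755 CPM in SO− (log2 fold change −0.15, edgeR adjusted p = 0.507), and Cdc20, the activator of the anaphase-promoting complex, had a log2 fold change of 0.003 (edgeR adjusted p = 0.998) with a sign that depended on the scaling. Among 12 tested partners of MuvB and DREAM the median was 0.04 and none was called. Rbbp4, a histone-binding subunit, was at 896 and 937 CPM in SO+ and at 764, 765 and 797 CPM in SO− (log2 fold change −0.24, edgeR adjusted p = 0.239), and Tfdp1, the dimer partner of E2F, had a log2 fold change of −0.13 (edgeR adjusted p = 0.690).

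The cofactors had medians near 0. None of the 7 MYB cofactors was called, and their median log2 fold change was −0.02. Mybbp1a, a nucleolar MYB-binding protein, was at 603 and 615 CPM in SO+ and 620, 611 and 607 CPM in SO−, and Men1, menin, had a log2 fold change of −0.10 (edgeR adjusted p = 0.818). None of the 21 MYC cofactors and turnover factors was called, at a median of −0.10, with Ruvbl2, a chromatin-remodelling ATPase, at −0.33 (edgeR adjusted p = 0.179) and Hdac2, a histone deacetylase, at −0.14 (edgeR adjusted p = 0.636). Of the 6 other network factors, also with none called, Mlxip, the glucose-responsive partner of MLX, had a log2 fold change of 0.21 (edgeR adjusted p = 0.574) and Mga, a MAX-binding repressor, of −0.29 (edgeR adjusted p = 0.576).

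Of 9 blood genes that MYB controls in progenitors, 6 were tested and none was called. Of the 6, 4 had a fold change above 0, and the median log2 fold change was 0.49. Of the same 6, 3 lay wholly higher and 1 wholly lower in SO−, against 13.9% and 15.6% of all genes tested. Kit, the stem cell factor receptor, was at 24.1 and 32.1 CPM in SO+ and at 44.5, 45.6 and 38.2 CPM in SO−, wholly higher in SO− (log2 fold change 0.60, edgeR adjusted p = 0.175). Also wholly higher were Gata3, a transcription factor of lymphoid and trophoblast cells, at 0.73 and 1.18 CPM in SO+ and 2.66, 10.7 and 3.82 CPM in SO− (log2 fold change 2.39, SE 0.76, edgeR adjusted p = 0.148, called with DESeq2), and Cxcr4, a chemokine receptor (log2 fold change 1.02, SE 0.54, edgeR adjusted p = 0.446). Cxcr4 was at 2.40 and 2.63 CPM in SO+ and at 6.53, 2.68 and 5.01 CPM in SO−. Its value in SO− embryo 2 was 3 counts, the limit of that library, so its separation there is within counting error. Cd34, a surface glycoprotein of progenitors and endothelium, was at 8.39 and 4.22 CPM in SO+ and at 0.73, 1.79 and 1.67 CPM in SO−, wholly lower (log2 fold change −2.27, SE 0.61, edgeR adjusted p = 0.0776), and among the fits that left out an embryo it passed only without SO+ embryo 2 (adjusted p = 0.0177). Of 8 meiotic genes, 3 were tested. Beside Tdrd5, Mov10l1, a helicase of the same germline pathway, was at 5.99 and 2.11 CPM in SO+ and at 5.08, 5.37 and 6.68 CPM in SO−.

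Because Myb is best known from blood progenitors, markers of blood were read beside it. The embryonic globins Hbb-bh1, Hba-x and Hbb-y had 0 counts in all 5 embryos, and the 9 markers of primitive blood and haemogenic cells summed to 9.11 and 10.7 CPM in SO+ and to 21.5, 30.4 and 17.4 CPM in SO−, the other way from Myb. Only 2 of these 9 markers had enough counts to be tested, and neither was called. Maternal blood and immune markers summed to 31.01 and 16.3 CPM in SO+ and to 7.26, 5.37 and 10.5 CPM in SO−, lower in SO− as Myb was. Nearly all of this was Coro1a, an actin-binding protein best known from leukocytes, which fell by 1.53 (SE 0.35, edgeR adjusted p = 0.037), whereas 6 of the 9, including the pan-leukocyte gene Ptprc, the adult globin gene Hbb-bs and Tyrobp, had 0 counts in every embryo. The Coro1a call held without SO+ embryo 2 and in no other fit that left out an embryo (adjusted p from 0.0533 to 0.365), nor with limma-voom (0.443). Maternal decidua markers summed to 8.95 to 13.1 CPM across the 5 embryos. The part of blood or maternal tissue in the Myb values was not tested. Coro1a, Dnmt3b, Gata3, Cxcr4, Gm26577, Psmc3ip and Prelid1 are named after their values were seen. The same holds for the blood markers Hbb-bh1, Hba-x, Hbb-y, Ptprc, Hbb-bs and Tyrobp.

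The genes whose levels followed Myb most closely over the 5 embryos were sought among the 9304 tested genes whose mean log2 CPM reached 3, by Pearson's r of log2(CPM + 1). They were Tubb4a, a beta-tubulin (r = 0.997), Slc20a2, a phosphate carrier (0.997), Rgl3, a Ral guanine nucleotide exchange factor (0.997), Mal2, a protein of apical transport (0.994), and Slc25a3, the mitochondrial phosphate carrier (0.994). With 5 embryos of 2 genotypes such values mainly restate which genes lie lower in SO− and higher in SO+ embryo 1 than 2, and 3 of the 5 were also in the top 5 with a pseudocount of 0.25. Tubb4a was at 72.6 and 60.9 CPM in SO+ and at 29.99, 25.1 and 22.7 CPM in SO−, and fell by 1.35 (SE 0.19, edgeR adjusted p = 0.00201), a call that did not hold without SO− embryo 2 (adjusted p = 0.0688). Rgl3 fell by 1.98 (edgeR adjusted p = 0.0133) and Mal2 by 1.80 (edgeR adjusted p = 0.0157), and both calls held only without SO+ embryo 2 among the fits that left out an embryo, with adjusted p up to 0.128 and 0.164 otherwise. Slc20a2 and Slc25a3 differed little, with log2 fold changes of −0.32 (edgeR adjusted p = 0.244) and −0.20 (edgeR adjusted p = 0.303). Pou5f1 ranked 83 in likeness to Myb (r = 0.966), Mycn 205 (r = 0.931) and Mybl2 424 (r = 0.887).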

How the data were processed

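The epiblast and visceral endoderm of 2 SO+ and 3 SO− embryos were sequenced after SmartSeq2 amplification of 1 ng of RNA, and embryos were grouped by the genotype in the labels. The values deposited by the authors are raw counts of reads for 49671 Ensembl genes, made by trimming (cutadapt), alignment (STAR, mouse genome GRCm38/mm10) and counting (HTSeq-count). Strand setting and removal of duplicate reads are not given in the sources used here. Total counts ranged from 1117566 to 27538119, so SO− embryo 2 is the least precise. Libraries of a genotype were not copies of each other (chi-square per degree of freedom at least 2.78).

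Levels are CPM over the total count. Genes were tested on counts with edgeR 4.0.16 in R 4.3.3 by the quasi-likelihood test, with genotype alone in the model, TMM factors and the filterByExpr filter. A gene was called where its p, adjusted by Benjamini-Hochberg over 12067 genes, was under 0.05. The SE of a log2 fold change is its size divided by the square root of F, and errors of levels within an embryo are 95% Poisson intervals. Transcript lengths and positions were from GENCODE M21, which matched 99.9% of the genes tested. The fit was checked on simulated counts. Alternatives were DESeq2 1.42.0, limma-voom (limma 3.58.1), scaling, filters, a robust spread, a replicate block and leaving out each embryo. Summing exons instead of taking the longest protein-coding transcript was an alternative chosen after seeing the data.

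The members and lists were chosen with earlier results of these data known. The text names all 10 members, Pou5f1, list genes past the threshold, the 2 most abundant tested genes of each list, the 5 genes most like Myb and the 2 nearest tested protein-coding genes on each side of Myb, and says where another gene is named. Embryos with the same number are different animals and were not paired.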

Additional observations from a re-analysis of the deposited data

How the results depend on the processing

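Myb stayed lower in SO− in all 13 alternative fits, with log2 fold changes from −4.85 to −3.68. With limma-voom it was −4.05 and was not called. Mycn and Mybl2 were lower in all 13, and Myc was higher in all 13. As the members were chosen on this contrast, nothing is read from which of them these fits called. The number of genes tested also differed between fits. It was 12067 as reported, with limma-voom and with the replicate block, and 21777 with DESeq2. With 1 embryo left out it was 12686 to 14395. The counts of calls below are therefore not shares. Counts for members and pathway genes are to be read beside the number of all genes called in the same fit. Whether they exceeded that background was not tested. The number of genes called was 283 as reported and 380 with DESeq2, 91 with limma-voom and 929 with the replicate number as a block, and 35 to 573 with 1 embryo left out. Members called were 2 as reported, 1 with limma-voom, 3 with the block (Mybl2 in addition) and 1 to 2 with 1 embryo left out. Pathway genes called were 2 as reported, 5 with DESeq2, 14 with the block and 0 to 8 with 1 embryo left out. The embryos of a genotype share only a number with those of the other, so the block has no basis in the design, and the Myb fold change under it was −3.94. Among the genes named, the signs that turned are the following. With limma-voom Mnt was −0.023 and Mlx −0.0041, without a low-count filter Mlx was −0.012, Mybbp1a −0.021 and Cdc20 −0.032, with DESeq2 Cdc20 was −0.0010 and with library size alone −0.0039. Under the block Max was 0.032, Cdc20 −0.025, Mtfr2 0.094 and Hbs1l 0.038. With 1 embryo left out, Mycl ranged from −0.11 to 0.054, Max from −0.44 to 0.035, Mnt from −0.19 to 0.35, Mlx from −0.092 to 0.13, Mybbp1a from −0.0079 to 0.029, Cdc20 from −0.11 to 0.12, Mov10l1 from −0.047 to 1.44, Mtfr2 from −0.39 to 0.096 and Hbs1l from −0.082 to 0.032. The cause of these changes was not tested. Depth limits the SO− values of Mybl1, Myb and Mxd3 most, with 9, 15 and 21 counts over the 3 embryos, and 1 count in SO− embryo 2 stands for 0.89 CPM.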
